A study of Canis lupus familiaris with 12 samples.

Results

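Desmosome components were followed in Madin-Darby canine kidney (MDCK) cells grown as flat sheets or as cysts. The members were 10 genes chosen for their role, with earlier results of these data known. They were the desmosomal cadherins DSC2, DSC3, DSG2 and DSG3, the plaque proteins DSP and JUP, the plakophilins PKP2, PKP3 and PKP4, and the membrane protein PERP. All probe sets annotated with 1 of these genes and no other were taken, which gave 21 probe sets for 9 genes, among 42924 tested probe sets and 15115 genes in all. DSC3 has no such probe set and is not analysed here. DSC2, DSG3, DSP, PKP2 and PKP3 have 1 probe set each, JUP and PERP 3, DSG2 4 and PKP4 6.

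Each of 12 one-colour Affymetrix arrays was hybridised with labelled total RNA of MDCK II tet-off cells, a widely used cell line derived from dog kidney tubules and kept in medium with G418. The 2D group has 6 arrays of flat sheets grown in 2-dimensional type I collagen culture, and the 3D group has 6 arrays of multicellular cysts grown in 3-dimensional type I collagen culture. Both groups are the same line and were collected on day 8 after collagenase digestion of the gel, and RNA of 4 samples was pooled for each array. The p-values therefore measure the spread between pools, and how the pools were drawn is not stated. The comparison asks how expression in cysts differs from that in flat sheets.

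Desmosomes are spot-like junctions that tie the keratin filaments of neighbouring epithelial cells together. Desmocollins (DSC) and desmogleins (DSG) bind across the gap between the cells, plakoglobin (JUP) and the plakophilins (PKP) hold their tails in a dense plaque, and desmoplakin (DSP) links the plaque to keratin. DSC2 and DSG2 are the forms found in simple epithelia such as the kidney tubule, whereas DSC3 and DSG3 are known mostly from stratified epithelia.

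Values are log2(intensity + 1) of the deposited linear intensities, and a fold change is 3D minus 2D on that scale, with its standard error (SE) from limma, a linear model fitted to all probe sets. A change was called where the p adjusted by the Benjamini-Hochberg method over all probe sets was under 0.05. Where a gene has several probe sets, the one with the highest mean over the 12 arrays stands for it. The median intensity of an array lay between 89.9 and 93.7. The 95th percentile of 59 control probe sets that match no dog gene, between 5.59 and 5.91 on the log2 scale, served as the background level. The groups parted along the first principal component (66.0% of the variance), and on the second (9.49%) 2D replicate 6 and 3D replicate 2 lay farthest from the median of their group.

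All 9 measured members differed between cysts and flat sheets. The call of DSG2 was lost, however, with a control measure of RNA quality as a covariate (limma adjusted p = 0.770). Of 6 measured desmosomal genes that are not members, 1 rose, 1 fell and 4 did not pass. DSC2, DSG2, DSG3, DSP, JUP, PKP3 and PERP rose in 3D and PKP2 and PKP4 fell, so 7 of 9 were raised and 2 lowered, where 19.8% of all genes were raised and 22.9% lowered. The 6 and 6 values did not overlap for 8 of the 9 genes, DSG2 being the exception, against 22.6% of all genes. The median log2 fold change of the 9 was 0.37, against -0.05 over all genes. Of the 21 probe sets, 13 rose, 7 fell and 1, of DSG2, missed the threshold, where 16.7% of all probe sets rose and 22.0% fell. The 6 and 6 values of 13 of the 21 did not overlap, against 18.7% of all probe sets. By their standing probe sets the raised genes ranged from 1.19-fold for JUP to 2.35-fold for DSC2, and PKP2 and PKP4 were 24.7% and 19.8% lower.

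**Figure D1:**
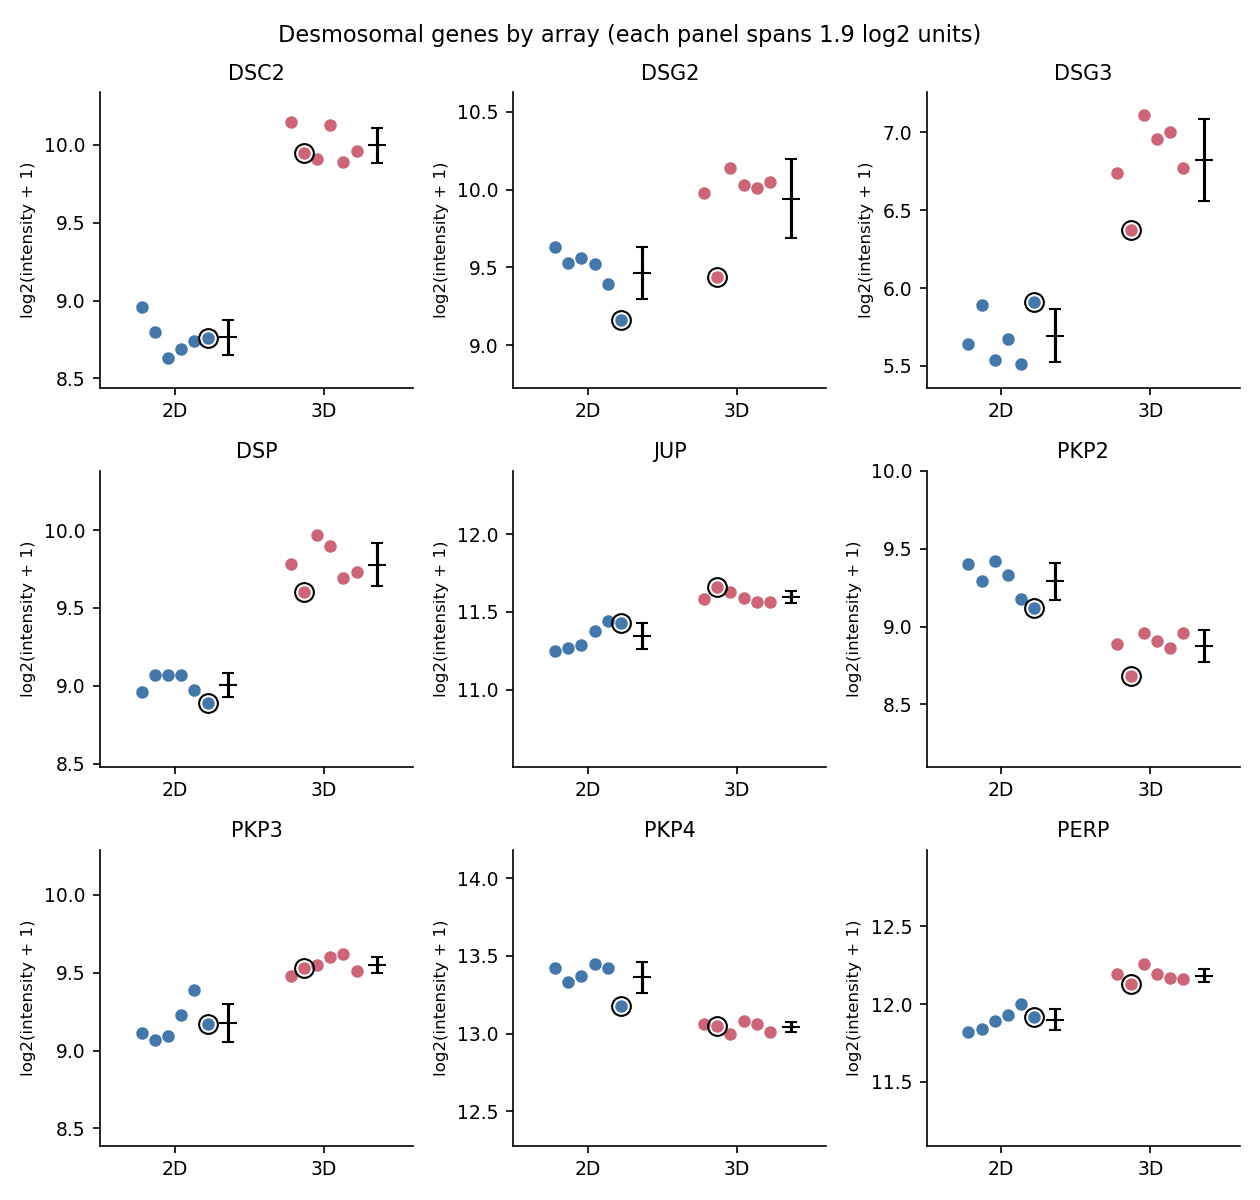
Log2(intensity + 1) of the 9 measured members on each array, 2D in blue and 3D in red, with the mean and SD (n = 6) in black beside each group. The ringed points are 2D replicate 6 and 3D replicate 2. DSC2, at 8.63 to 8.96 in 2D and 9.89 to 10.15 in 3D, shows the widest gap, and in DSG2 only the ringed 3D point, at 9.44, lies among the 2D values.

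The cadherin DSC2, the desmocollin of simple epithelia, and DSG3 changed by more than 1 on the log2 scale. DSC2 was ahead by the values as deposited, but DSG3 was ahead under quantile normalization (1.154 against 1.149) and without 2D replicate 6 and 3D replicate 2 (1.26 against 1.24), so their order is not settled. The values of DSC2 on 2D replicates 1 to 6 were 8.96, 8.80, 8.63, 8.69, 8.74 and 8.76, and on 3D replicates 1 to 6 they were 10.15, 9.95, 9.91, 10.13, 9.89 and 9.96. The lowest cyst array stood above the highest sheet array by more than the whole range of either group. DSC2 rose from 8.76 ± 0.11 to 10.00 ± 0.11 (SD, n = 6 arrays each), or by 1.23 on the log2 scale (limma: SE 0.06, 95% confidence interval 1.10 to 1.37, adjusted p = 3.57e-10). Its absolute change was larger than that of 98.7% of all genes.

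DSG3, the desmoglein of stratified epithelia, was near background in flat sheets. The 2D values ran from 5.51 to 5.91 with a median of 5.65, at or below the background level of the array on 5 of 6 arrays. In cysts they ran from 6.37 to 7.11 with a median of 6.86, above background on all 6 and without overlap. DSG3 rose from 5.69 ± 0.17 to 6.82 ± 0.26 by 1.13 on the log2 scale (limma: SE 0.11, adjusted p = 5.88e-07). With so low a start this scale may understate the change, which was not tested. DSC2, DSG3 and PKP2 are each measured by a single probe set with the suffix _s_at, which can hybridise with more than 1 transcript or family member, so which family member gave their signal is uncertain.

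DSG2, the desmoglein of simple epithelia, rose less evenly. Its standing probe set read 9.63, 9.53, 9.56, 9.52, 9.39 and 9.16 in 2D and 9.98, 9.44, 10.14, 10.03, 10.01 and 10.05 in 3D. Of the cyst arrays, 5 lay above every sheet array, and 3D replicate 2 lay below 4 of the 6. DSG2 rose from 9.47 ± 0.17 to 9.94 ± 0.25, by 0.48 on the log2 scale (limma: SE 0.11, adjusted p = 0.00224), and without 3D replicate 2 by 0.58 (SE 0.07, adjusted p = 1.31e-05). Of the remaining 3 probe sets of DSG2, those with changes of 0.60 and 0.57 passed, and the dimmest, with a change of 0.35, did not (limma adjusted p = 0.0501). The difference of each from the standing probe set did not pass (exact permutation p = 0.0714, 0.541 and 0.197 before adjustment).

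In the dog assembly UU_Cfam_GSD_1.0, as annotated by RefSeq, the desmosomal cadherin genes lie side by side in the order DSG2, DSG3, DSG4, DSG1, DSC1, DSC2, DSC3. The called changes were those of DSG2, DSG3 and DSC2. The genes between DSG3 and DSC2 did not pass. DSG4 (change of -0.08, limma adjusted p = 0.237) and DSC1 (-0.10, adjusted p = 0.191) were at or below background on all 12 arrays, and DSG1 (0.15, adjusted p = 0.0837) on all 6 of 2D and 2 of 3D.

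Desmoplakin, DSP, the link to keratin, rose clearly. Its values ran from 8.89 to 9.07 with a median of 9.02 in 2D and from 9.60 to 9.97 with a median of 9.75 in 3D. The groups did not overlap, and the sheet arrays lay closer together than the cyst arrays. DSP rose from 9.01 ± 0.07 to 9.78 ± 0.14, a 1.70-fold change or 0.77 on the log2 scale (limma: SE 0.06, adjusted p = 7.60e-08).

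Plakoglobin, JUP, which serves both desmosomes and adherens junctions, rose less. The standing probe set ran from 11.25 to 11.44 with a median of 11.34 in 2D and from 11.56 to 11.66 with a median of 11.58 in 3D, without overlap. It rose from 11.35 ± 0.08 to 11.60 ± 0.04, by 0.25 (SE 0.05, limma adjusted p = 0.000591). With the mean of its 3 probe sets in place of the brightest, JUP rose by 0.42 (limma: SE 0.06, adjusted p = 2.04e-05), ahead of PKP3 at 0.37 and PERP at 0.31 by the same measure. The dimmer JUP probe sets rose by 0.46 (SE 0.08) and 0.56 (SE 0.12), and in both 1 or more cyst arrays fell among the sheet arrays. Neither differed from the standing one after adjustment over all 12 such comparisons within genes (1 of the 12 had an unadjusted p under 0.05; differences of 0.21 and 0.31, exact permutation p = 0.0325 and 0.0952, adjusted p = 0.381 for both).

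The plakophilins, armadillo proteins that cluster cadherins in the plaque, moved in both directions. PKP2, the plakophilin with the widest tissue range, ran from 9.12 to 9.42 with a median of 9.31 in 2D and from 8.68 to 8.96 with a median of 8.90 in 3D. Every cyst array was lower than every sheet array. PKP2 fell from 9.29 ± 0.12 to 8.88 ± 0.10, a log2 change of -0.41 (limma: SE 0.06, adjusted p = 9.23e-05).

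PKP3, found in most epithelial desmosomes, went the other way. The sheet arrays ran from 9.07 to 9.39 with a median of 9.14, and the cyst arrays from 9.48 to 9.62 with a median of 9.54. The groups were apart, although the highest sheet array, 2D replicate 5, came close to the lowest cyst array. PKP3 rose from 9.18 ± 0.12 to 9.55 ± 0.05, a log2 change of 0.37 (limma: SE 0.06, adjusted p = 7.14e-05).

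PKP4, also called p0071, is found at adherens junctions as well as at desmosomes. Its standing probe set ran from 13.18 to 13.45 with a median of 13.39 in 2D and from 13.00 to 13.08 with a median of 13.05 in 3D. The cyst arrays were all lower than the sheet arrays and lay closer together. PKP4 fell from 13.36 ± 0.10 to 13.04 ± 0.03, a log2 change of -0.32 (limma: SE 0.05, adjusted p = 0.000100). Its 6 probe sets all fell, by 0.27 to 0.42, and for 4 of them the groups did not overlap.

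PERP, a tetraspan membrane protein of desmosomes and a target of the p53 family, rose slightly and evenly. The values ran from 11.82 to 12.001 with a median of 11.90 in 2D and from 12.13 to 12.26 with a median of 12.18 in 3D. None of the 3 probe sets had overlapping groups, and their log2 fold changes were 0.28, 0.32 and 0.34. The standing probe set rose from 11.90 ± 0.07 to 12.19 ± 0.04 (limma: SE 0.04, adjusted p = 0.000102).

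**Figure D2:**
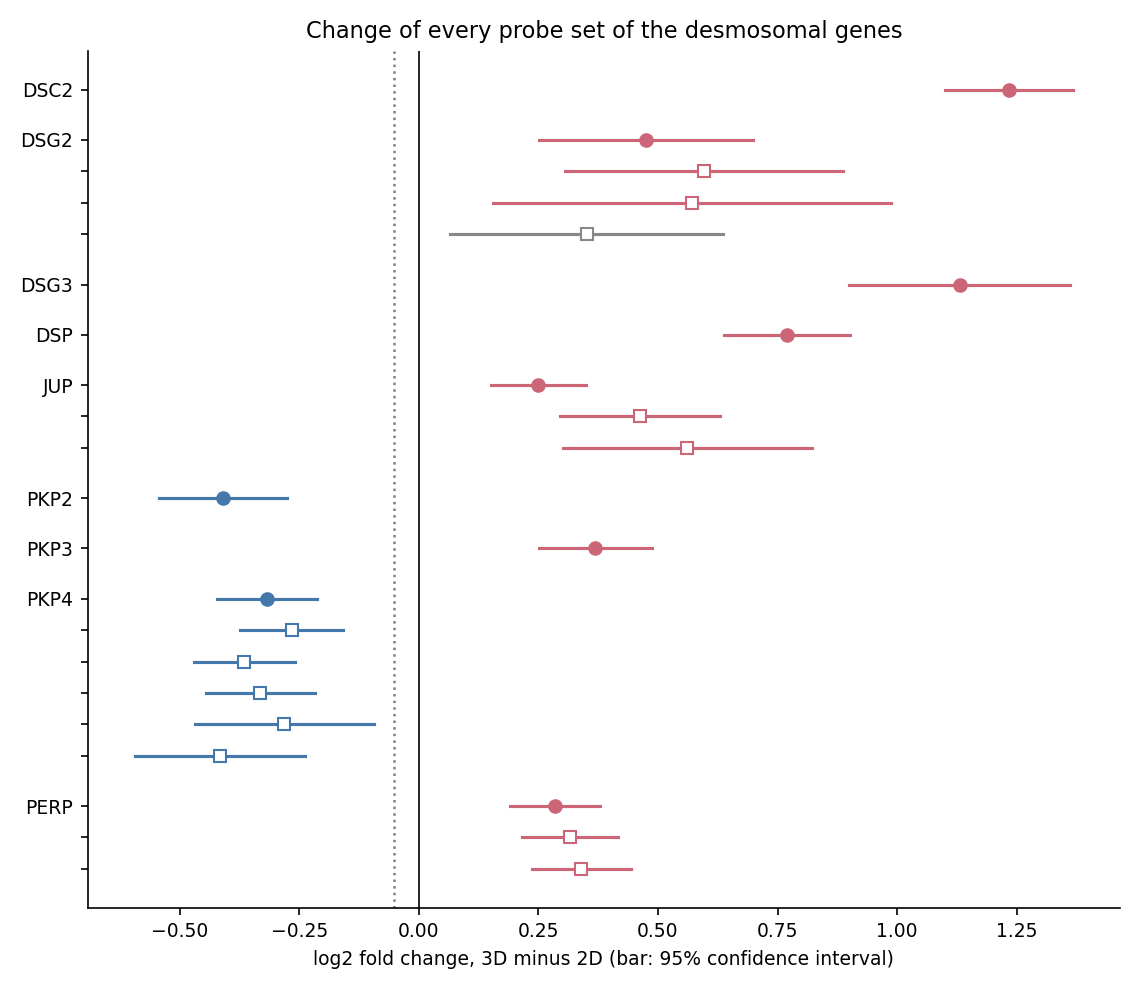
Log2 fold change (3D minus 2D) of the 21 probe sets with 95% confidence intervals, red where raised, blue where lowered and grey where not called; filled circles are the probe sets that stand for a gene, open squares the others, and the dotted line is the median of all genes, -0.05. The 6 probe sets of PKP4 lie between -0.42 and -0.27 and the 3 of PERP between 0.28 and 0.34, whereas DSC2 and DSG3 lie past 1.

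Partners of the same structure changed by unequal amounts. For pairs of members with linked roles, the per-array difference of their log2 values was compared between groups with an exact two-sided permutation test over all 924 assignments, adjusted over 6 pairs. The change was larger for DSC2 than for DSG2 by 0.76 (95% interval 0.48 to 1.07), for DSP than for JUP by 0.52 (0.33 to 0.70) and for DSP than for PERP by 0.48 (0.34 to 0.62). These had an exact p of 0.00216 each, the smallest that 6 against 6 arrays can give, and an adjusted p of 0.00325. The same held for PKP2 against PKP3, which differed by -0.78 (95% interval -0.99 to -0.55). The size of the gap between DSP and JUP depended on the JUP probe sets used. When JUP was averaged over all 3 of them, the gap was 0.345 and still passed (exact permutation p = 0.00216, adjusted p = 0.00325). DSG2 rose less than DSG3 by 0.66 (95% interval of the difference -0.91 to -0.38, exact permutation p = 0.00433, adjusted p = 0.00519). Since DSG3 was at or below background on 5 of 6 sheet arrays, its own change may be understated. The size of this difference and its interval are therefore not exact. The falls of PKP2 and PKP4 differed by -0.09, with an interval from -0.23 to 0.05 (exact permutation p = 0.175), which does not show that they were alike. Without 2D replicate 5 they differed by -0.13 and passed (exact permutation p = 0.0433, adjusted p = 0.0433).

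A control measure of RNA quality also differed between the groups. The mean log2 ratio of 5-prime to 3-prime signal over 4 pairs of actin and GAPDH control probe sets was -0.92 ± 0.14 on the 6 arrays of 2D and -0.54 ± 0.17 on the 6 of 3D (mean ± SD; p = 0.00866 by exact permutation). On 3D replicate 2 the ratio was -0.88, which lies among the sheet arrays. That array had the lowest cyst value of DSG2, DSG3, DSP, PKP2 and PERP and the highest of JUP. With this ratio as a covariate the change of DSG2 was 0.06 (limma: SE 0.11, adjusted p = 0.770), and 2 of its dimmer probe sets fell, by 0.39 and 0.28 (adjusted p = 0.00440 and 0.0349). The part of RNA quality in the change of DSG2 was not tested further. Under the 21 alternatives without such a covariate the adjusted p of DSG2 lay between 2.25e-06 and 0.00986. The other 8 genes kept their direction and their call with the covariate, DSC2 at 1.19, DSG3 at 0.83, DSP at 0.61, PKP3 at 0.48, JUP at 0.36, PERP at 0.30, PKP4 at -0.29 and PKP2 at -0.63. Of the probe sets, 8 then rose and 8 fell, and the dimmer ones of JUP, at 0.34 and 0.03, did not pass (limma adjusted p = 0.0723 and 0.901). A dimmer probe set of PKP4, at -0.16, also lost its call (limma adjusted p = 0.168). A GAPDH pair among the 4 had ratios of -0.13 ± 0.07 in 2D and -0.07 ± 0.08 in 3D and did not pass (exact permutation p = 0.201). A further actin pair, outside the 4, had ratios of -2.21 ± 0.18 and -2.27 ± 0.17 (exact permutation p = 0.626). With that pair included in the ratio the change of DSG2 was 0.16 (limma: adjusted p = 0.254).

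**Figure D3:**
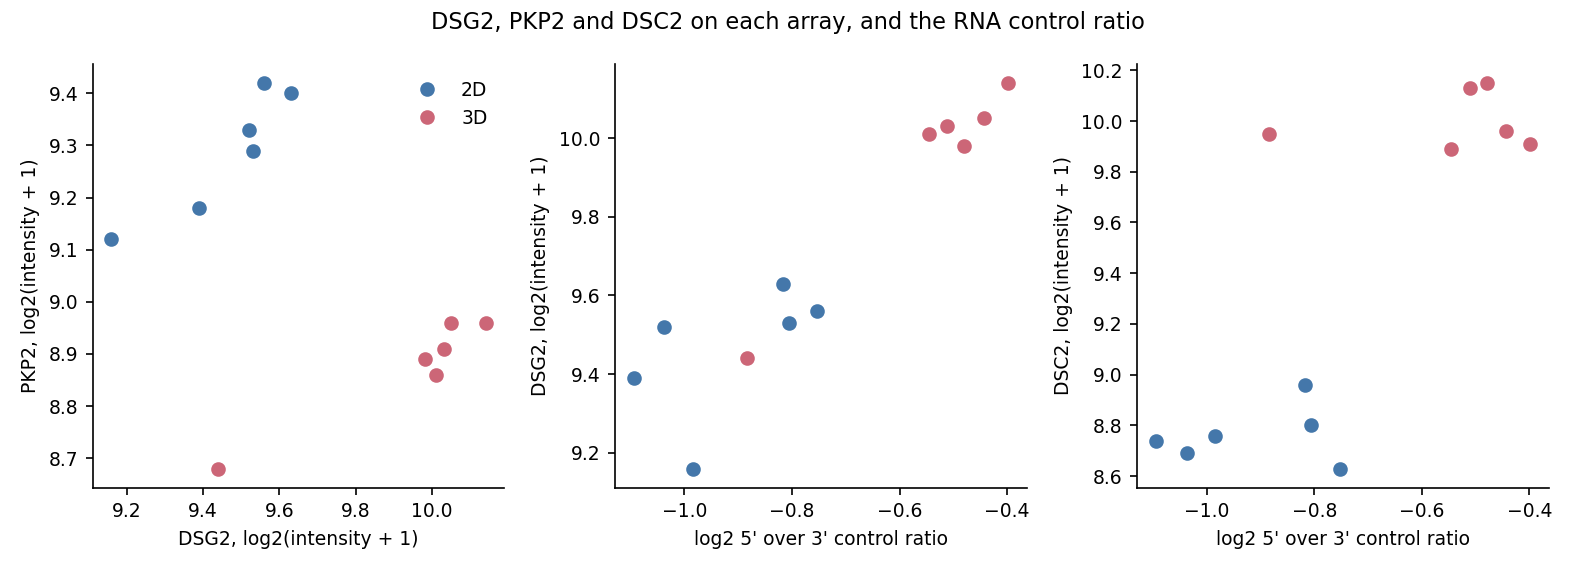
Left, PKP2 against DSG2 on each array; middle and right, DSG2 and DSC2 against the log2 ratio of 5-prime to 3-prime control signal; all expression values are log2(intensity + 1), with 2D in blue and 3D in red. The 3D array with a ratio of -0.88 has a DSG2 value of 9.44, among the 2D arrays, but a DSC2 value of 9.95, among the other 3D arrays.

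The rest of the junctional machinery was read from related gene lists. Of 6 further desmosomal genes, 1 rose and 1 fell: periplakin, PPL, by 0.21 (limma: SE 0.04, adjusted p = 0.00176) and envoplakin, EVPL, by 0.23 (SE 0.07, adjusted p = 0.0262), both plakins of the cornified envelope. PKP1, the plakophilin of stratified epithelia, changed by -0.16 and did not pass (limma adjusted p = 0.0654). The list median was -0.09.

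Of 7 measured intermediate filament genes, the filaments that desmosomes anchor or their relatives, 3 rose and 0 fell, with a median of 0.13. At an unadjusted limma p under 0.05, 4 rose and 1 fell. KRT8 rose by 0.64 (limma: SE 0.05, adjusted p = 5.01e-08), its partner KRT18 by 0.18 (SE 0.04) and vimentin, VIM, by 0.47 (SE 0.05). KRT7 had a change of 0.13 and did not pass (limma adjusted p = 0.0650).

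Hemidesmosomes anchor the same keratins to the basement membrane. Of 8 measured genes, 6 rose and 1 fell, with a median of 0.63. LAMA3, a laminin chain of the basement membrane, rose by 1.88, the integrin chains ITGB4 and ITGA6 by 0.77 and 0.72, and plectin, PLEC, by 0.77, although 1 of the 2 probe sets of PLEC was not called. LAMA3 rose in 2 of its 3 probe sets and ITGA6 in 3 of its 4. COL17A1, counted as raised, rose in 1 of its 2 probe sets and fell in the other. The plakin DST fell by 0.23, in 1 of its 10 probe sets, and another of them rose. Of 12 adherens junction genes, 7 rose and 0 fell, with a median of 0.26 (7 and 1 at an unadjusted limma p under 0.05). Vinculin, VCL, rose by 1.03 in 1 of its 2 probe sets, E-cadherin, CDH1, by 1.02 (its array values had SDs of 0.30 and 0.51), the nectin NECTIN3 by 0.62 and p120 catenin, CTNND1, by 0.55.

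Of 19 measured genes known to act on desmosomal genes or proteins, 7 rose and 3 fell, with a median of 0.00 and a mean of 0.20. KLF4, an epithelial transcription factor, rose by 1.68 in 1 of its 2 probe sets, and SNAI2, a repressor of junction genes, by 1.64. The receptor EGFR rose by 0.59 and the epithelial factor KLF5 by 0.35.

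**Figure D4:**
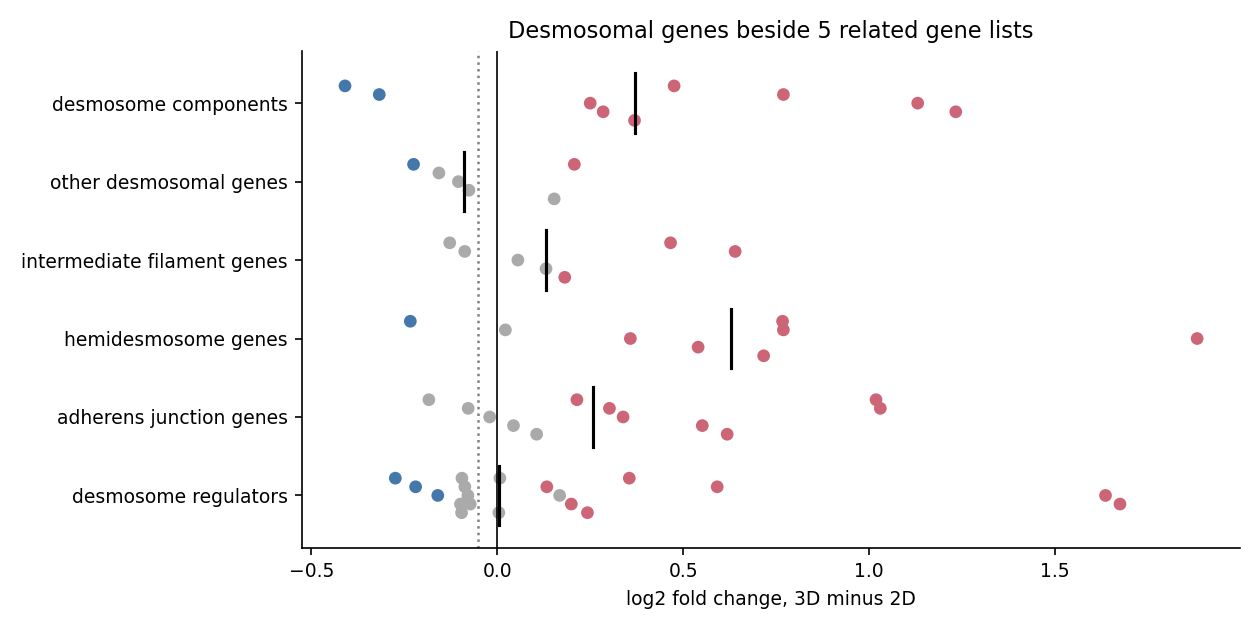
Log2 fold changes (3D minus 2D) of the 9 measured desmosome components and of the genes of 5 related lists, 1 point per gene, red where raised, blue where lowered and grey where not called; black bars are list medians and the dotted line is the median of all genes, -0.05. The medians are 0.37 for the desmosome components, 0.63 for hemidesmosome genes and -0.09 for the other desmosomal genes.

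Markers of the labelled cell type were present on every array. Of 9 measured epithelial and kidney tubule markers, 0 were at background throughout, 3 rose and 3 fell, with a median of -0.03. CDH1 and KRT8 rose as given above, the splicing factor ESRP2 fell by 0.22 and the kidney cadherin CDH16 by 0.19. Of 9 fibroblast markers 0 rose and 2 fell (0 and 5 at an unadjusted limma p under 0.05), DCN by 0.25 and COL1A1 by 0.21, and their summed intensity was 608 to 699.8 in 2D and 567 to 623 in 3D. COL1A2 was at background on all 12 arrays, DCN on 3 of 2D and 6 of 3D, and COL1A1 on 1 of 2D and 5 of 3D. COL1A1 fell in 1 of its 3 probe sets. Of 9 leukocyte markers 1 rose, CD14 by 0.43, and 3 fell, ITGAM by 0.26, CD3E by 0.19 and PTPRC by 0.17, with a summed intensity of 699.6 to 777 in 2D and 662 to 765 in 3D, and CD79A was at background throughout. Of 6 endothelial markers 0 rose and 2 fell (0 and 2 at an unadjusted limma p under 0.05), KDR by 0.31 and PECAM1 by 0.23, with sums of 440.02 to 487 and 408 to 447, and PECAM1 was at background throughout. The lowest and the highest sum of each of these 3 lists were lower in 3D, and their part in the changes of the desmosomal genes was not tested. The background level of the arrays also ran lower in 3D, from 5.59 to 5.71 against 5.67 to 5.91 in 2D. Its part in these sums was not tested. Fewer cells of a type, less RNA per cell and a lower background cannot be told apart in such bulk RNA.

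The genes most like the 3 members with the largest changes were found by Pearson correlation over the 12 arrays, as a description. The 12 arrays share the difference between the cultures. DSC2 was closest to ETV5 (r = 0.992), OTULIN (0.991) and ZDHHC6 (0.991). DSG3 was closest to EMP1 (r = 0.992), DEGS1 (0.984) and RNF121 (0.983), and DSP to GPR180 (0.998), CHTOP (0.994) and TRAPPC1 (0.993). Within the 6 cyst arrays alone, r was 0.845 for DSC2 with ETV5, 0.911 for DSG3 with EMP1 and 0.990 for DSP with GPR180. These 9 genes were picked for a high positive r with members that rose, so their own rise follows from the choice. It ran from 0.25 for CHTOP and ZDHHC6 to 1.41 for EMP1.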

How the data were processed

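The deposited values are linear intensities, 1 per probe set and array. GCRMA is named without a version in the submitters' processing notes, while later scaling and probe set definitions are not given there. Genes were named from the platform annotation, and all 21 gene identifiers of the members matched RefSeq. The 111 control probe sets were left out, and log2(intensity + 1) of the other 42924 entered limma 3.58.1 (lmFit, then eBayes, in R 4.3.3) by group alone, without a filter on low values. Pair differences and control ratios were tested by exact two-sided permutation (scipy 1.17.1).

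The members, lists and alternatives were chosen with earlier results of these data known. The text names all members, of each list up to 4 called genes with the largest change, and 3 genes most like each of the 3 members changed most. DSG4, DSC1, DSG1, PKP1, KRT7, DST, COL17A1 and the further marker genes were named after their values were seen. Comparisons of probe sets within a gene and the covariate over 5 control pairs were added likewise. Alternatives were quantile normalization, centring on the median, a filter (log2 above 6 on 6 arrays), a pseudocount of 16, a trended robust variance prior, array weights, the replicate block, the RNA ratio as a covariate, the mean of a gene's probe sets and leaving out arrays. The fit was tested on simulated data with independent normal noise and far fewer changes than the real data. It recovered 36% of 50 planted changes of 0.25, 90% of those of 0.5, 98% of 1 and 100% of 2. Of its 172 calls, 10 were false. A small change that was not called is therefore not shown to be absent.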

Additional observations from a re-analysis of the deposited data

Results flagged for a closer look

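Of 42 sets of 6 values (21 probe sets in 2 groups), 5 held 1 array set apart from the rest by Dixon's test, and chance sets apart about 5% of such sets. In all 5 that array was 3D replicate 2, and in all 5 it was the lowest cyst array. For 3 probe sets of DSG2 it read 9.44, 8.34 and 7.34, where the nearest other cyst arrays read 9.98, 9.06 and 8.32. For PKP2 it read 8.68 against 8.86, and for a dimmer probe set of PERP 11.83 against 11.98. The 5 sets are not independent, since they come from 1 array and 3 of them from 1 gene.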

How the results depend on the processing

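Under 23 alternatives, each of the 9 measured genes kept its direction, and 205 of 207 values kept their side of the threshold. The exceptions were the values of DSG2 with the RNA control ratio as a covariate (0.06) and with that ratio over 5 control pairs (0.16). With the first covariate 8 of 21 probe sets rose, against 13 without it. Leaving out each of the 12 arrays moved DSG3 between 1.07 and 1.22, DSG2 between 0.41 and 0.58 and PKP2 between -0.44 and -0.37. With the outlying arrays (2D replicate 6, 3D replicate 2) left out together, 14 probe sets rose and 7 fell. Of 16 alternatives tried for the pairs of members, 15 gave 5 of 6 with unequal change and 1, without 2D replicate 5, gave 6. None of the 16 had the RNA control ratio as a covariate, so its part in the pair differences was not tested. The labels do not say that equal replicate numbers share a culture. Same-numbered arrays deviated together with correlations of 0.00 to 0.36 across probe sets. The closest 3D array was the same-numbered one for 2D replicates 1, 2, 3 and 4. In the other direction, only 3D replicate 3 was closest to the 2D array of its own number. The numbers were not taken as pairs in the main tests. With the replicate block, 14 probe sets rose and 7 fell, and every gene call was kept. Signal over background limits DSG3 in 2D.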

Other observations

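DSG2 and PKP2 varied together from array to array within each culture, although they moved in opposite directions between cultures. Pearson's r was 0.920 (Spearman's rho 0.886, exact permutation p = 0.0111 and 0.0333) over the 6 sheet arrays and 0.963 (rho 0.886, exact permutation p = 0.0222 and 0.0333) over the 6 cyst arrays. Without the 2 arrays farthest from the median of DSG2, r was 0.703 and 0.653. The pair was picked as the closest after the values were seen, and of the 72 relations computed among the members, 10 had an unadjusted Pearson p under 0.05 and 0 passed adjustment (exact permutation, adjusted p = 0.267 and 0.300 for Pearson's r).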
